A study of Mus musculus with 16 samples.

Results

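Pmaip1 and other target genes of the transcription factor p53 were followed in the developing palate of mouse embryos whose neural crest cells had lost Erk2, a MAP kinase that relays growth factor signals. The set names 8 genes: Pmaip1, Bbc3, Bax, Cdkn1a, Mdm2, Ccng1, Phlda3 and Trp53inp1. Members were found as probe sets of the array that the platform annotation gives to one of these genes alone, which gave 13 probe sets for 7 genes out of 34958 probe sets for 18194 genes; Bax was not analysed here. The set was chosen by the E14.5 values of Pmaip1, which had stood out among genes higher in mutants, and other known p53 targets were put beside it. Differences of the members at E14.5 are therefore given as a description with no test, and the tests of the members use the E13.5 arrays.

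Mutants were Erk2 fl/fl; Wnt1-Cre embryos and controls were Erk2 fl/fl embryos without Cre, which the sample titles call wild-type, all of strain C57BL/6J. Embryonic day 13.5 (E13.5) is covered by 3 arrays per genotype and E14.5 by 5 per genotype, and the E14.5 arrays fall into 2 labelled batches. Wnt1-Cre acts in neural crest cells and their descendants, so epithelium, muscle, vessels and blood in the same sample keep Erk2 in a mutant, and both genotypes carry the floxed allele. The labels name palate mesenchyme as the tissue, the study's design text has primary mesenchymal cells of the palate instead, and neither says how many embryos 1 array holds, so p-values measure the spread between these samples only.

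The values are log2 expression values from 1-colour Affymetrix arrays. E13.5 arrays had medians of 3.39 to 3.44, and E14.5 arrays had medians of 1.63 to 1.66, so levels were compared within a stage, and stage and normalization cannot be told apart. Pairs of arrays within a group had r of 0.993 to 0.997. The palate mesenchyme genes Prrx1, Col1a2 and Twist1 were among the 12 of 12 mesenchyme markers that passed the filter on low values, which asked for a log2 value of at least 4 on at least 3 arrays. Erk2 was not analysed here, so the deletion could not be checked. Of the E14.5 arrays, 3 of 5 mutant arrays and 1 of 5 control arrays read as female by sex-linked transcripts, and all 6 E13.5 arrays did. In bulk samples, fewer cells of a type and less RNA per cell cannot be told apart.

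p53 is a transcription factor that is held low in unstressed cells by the ubiquitin ligase Mdm2, itself a p53 target, and that rises after DNA damage and other stress. Its targets stop the cell cycle (Cdkn1a, the CDK inhibitor p21), feed back on p53 (Mdm2, Ccng1, Trp53inp1), restrain AKT signalling (Phlda3) or trigger mitochondrial apoptosis. The BH3-only proteins NOXA, encoded by Pmaip1, and PUMA, encoded by Bbc3, bind and block the survival proteins of the BCL2 family, and NOXA acts chiefly on MCL1. Excess p53 activity in cranial neural crest cells is known from mouse models to cause craniofacial defects.

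p53 binds pairs of a 10-base half-site, and the promoter windows that hold a match to the half-site motif are printed. Binding was not measured, so a match is not shown to be bound by p53. The genes were picked as known p53 targets, so a half-site near their starts is part of what chose them and is given as a description. Windows reach from 250 bases before to 50 bases after an annotated start (RefSeq, GRCm38.p6), and 5 of the 7 measured members have 8 windows between them, of which some of the 3 Bbc3 windows overlap. No window is given for Pmaip1 or Trp53inp1. The half-site motif, which reads the same on both strands so that 1 search covers both, was found in 3 of these 8 windows; over all 32851 windows of the table, 8.36% hold it. The 3 windows are printed 5′ to 3′ on the strand of the gene, with the matches to the motif in capitals. They lie at chr17:29090729-29091028 on the plus strand (Cdkn1a), chr11:40755237-40755536 on the minus strand (Ccng1) and chr10:117710709-117711008 on the minus strand (Mdm2).
Cdkn1a: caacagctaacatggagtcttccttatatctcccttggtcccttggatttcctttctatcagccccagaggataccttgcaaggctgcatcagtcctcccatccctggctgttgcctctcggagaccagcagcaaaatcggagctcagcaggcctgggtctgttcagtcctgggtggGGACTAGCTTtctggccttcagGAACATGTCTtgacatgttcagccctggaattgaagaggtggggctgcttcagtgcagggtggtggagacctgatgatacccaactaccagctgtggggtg
Ccng1: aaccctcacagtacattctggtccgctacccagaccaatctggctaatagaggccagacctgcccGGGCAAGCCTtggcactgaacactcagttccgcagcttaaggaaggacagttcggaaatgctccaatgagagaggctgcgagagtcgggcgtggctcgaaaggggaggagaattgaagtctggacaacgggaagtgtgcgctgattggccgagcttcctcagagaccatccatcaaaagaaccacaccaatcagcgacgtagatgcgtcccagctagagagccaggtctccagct
Mdm2: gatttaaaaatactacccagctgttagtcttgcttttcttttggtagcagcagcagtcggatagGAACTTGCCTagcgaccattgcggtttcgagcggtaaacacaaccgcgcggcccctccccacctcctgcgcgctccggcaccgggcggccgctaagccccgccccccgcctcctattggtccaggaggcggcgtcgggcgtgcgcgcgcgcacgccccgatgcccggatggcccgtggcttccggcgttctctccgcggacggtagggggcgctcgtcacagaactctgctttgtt

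The Cdkn1a window, at the more upstream of its 2 annotated starts, held 2 half-sites, beginning at −73 and −51 from the start, while 0.359% of all windows hold 2 or more. The Ccng1 and Mdm2 windows held 1 exact match each and no second exact match, beginning at −185 in Ccng1 and −186 in Mdm2. Only exact matches to all 10 bases of the motif were searched. Half-sites with a differing base stay in lower case, and pairs that include such a half-site were not looked for. The second Cdkn1a window, the 3 Bbc3 windows and the Phlda3 window held no match in these letters.

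Pmaip1 was higher in E14.5 mutants. Its single probe set read 4.43, 4.63, 4.74, 4.57 and 4.99 in the mutants, against 4.36, 3.90, 3.94, 3.63 and 3.58 in the controls. All 5 mutants lay above all 5 controls, and the gap between the lowest mutant and control 1, the highest control, was narrow. Mutants averaged 4.67 ± 0.21, against 3.88 ± 0.31 for controls (SD, n = 5 and 5), a log2 difference of 0.79 ± 0.17 (moderated SE) or 1.73-fold. As background, 4.41% of the 11116 genes tested had E14.5 groups that did not overlap. Within batch 1, which holds replicates 1 and 2, the difference was 0.40, and within batch 2, with replicates 3 to 5, it was 1.05. It was 0.89 with sex as a term.

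Pmaip1 passed the filter on low values through E14.5 alone, where 5 of 5 mutants and 1 of 5 controls reached a log2 value of 4, so its presence among the tested genes is tied to the group in which it was high. No E13.5 array reached that level.

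At E13.5 Pmaip1 did not show the same ordering. The mutants read 3.73, 2.85 and 3.40, against 3.82, 3.499 and 3.54 in the controls. The groups overlapped, and mutant 2 was the lowest array. The log2 difference was −0.29 ± 0.22 (moderated SE, n = 3 and 3), with a 95% interval from −0.76 to 0.17 (adjusted p = 0.71, limma), and −0.06 without mutant 2. Among the probe sets of its own array, Pmaip1 stood at the 41.9th to 53.7th percentile in E13.5 mutants and the 51.4th to 54.9th in E13.5 controls. At E14.5 it stood at the 70.9th to 73.8th percentile in mutants and the 66.3rd to 70.5th in controls.

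**Figure D1:**
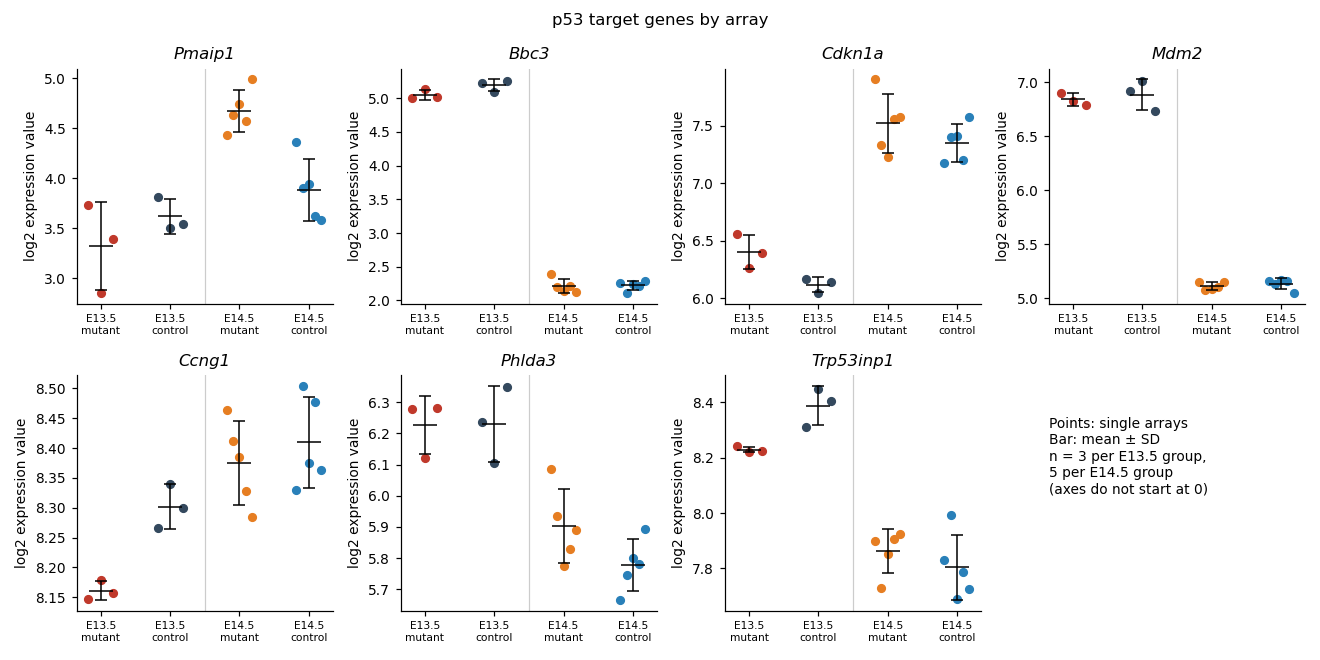
Log2 expression values of the chosen probe set of each of the 7 p53 target genes (vertical axes, which do not start at 0) in the 4 groups, with each point an array and bars showing mean ± SD (n = 3 per E13.5 group and 5 per E14.5 group). In Pmaip1 the 5 E14.5 mutants lie above the 5 controls, and in Cdkn1a, Ccng1 and Trp53inp1 the E13.5 genotypes do not overlap.

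Bbc3 is the other BH3-only gene of the set, and like Pmaip1 it had a lower mean in E13.5 mutants. At E13.5 Bbc3 read 5.01, 5.14 and 5.01 in mutants, against 5.23, 5.10 and 5.26 in controls. The groups overlapped through mutant 2 and control 2, and the log2 difference was −0.14 ± 0.07 (moderated SE, n = 3 and 3, adjusted p = 0.57, limma), with a 95% interval from −0.30 to 0.02. At E14.5 the values were low, 2.12 to 2.39 in mutants and 2.12 to 2.29 in controls, and the ranges overlapped almost entirely. Bbc3 passed the filter through the 6 E13.5 arrays alone. No E14.5 array reached a log2 value of 4, so the low values there say little on whether Bbc3 moved with Pmaip1.

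Cdkn1a, which encodes p21, was the member with the highest mutant values at E13.5 relative to controls. Its chosen probe set read 6.55, 6.26 and 6.39 in mutants, against 6.17, 6.04 and 6.14 in controls. The 3 mutants lay above the 3 controls. The difference was 0.29 ± 0.15 (moderated SE, n = 3 and 3), or 1.22-fold, with a 95% interval from −0.03 to 0.60, and the adjusted p was 0.56 (limma). Its second probe set gave 6.67, 6.31 and 6.62 in mutants and 6.35, 6.13 and 6.10 in controls, a difference of 0.34 with overlap through mutant 2.

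At E14.5 the chosen Cdkn1a probe set read 7.90, 7.34, 7.23, 7.56 and 7.58 in mutants, against 7.17, 7.41, 7.41, 7.21 and 7.57 in controls. The groups overlapped over most of their range. The mutant mean was 0.17 above the control mean, with 0.33 in batch 1 and 0.06 in batch 2, and 0.05 without mutant 1. The second probe set differed by 0.24, with 0.48 in batch 1 and 0.09 in batch 2.

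Ccng1, which encodes cyclin G1, a partner of a phosphatase that acts on Mdm2, lay lower in E13.5 mutants on its brightest probe set. The values were 8.15, 8.18 and 8.16 in mutants, against 8.27, 8.34 and 8.30 in controls. All 3 mutants were below all 3 controls, by a small amount: −0.14 ± 0.06 (moderated SE, n = 3 and 3, adjusted p = 0.45, limma), with a 95% interval from −0.26 to −0.02. The other 2 Ccng1 probe sets differed by 0.04 and −0.01, and the mean over all 3 by −0.04. At E14.5 the brightest probe set read 8.28 to 8.46 in mutants and 8.33 to 8.50 in controls and differed by −0.04, and the other 2 differed by −0.22 and −0.09.

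Trp53inp1, a stress-induced nuclear protein that promotes p53 phosphorylation, had a similar pattern at E13.5. It read 8.24, 8.22 and 8.22 in mutants, against 8.31, 8.45 and 8.40 in controls, without overlap. The difference was −0.16 ± 0.07 (moderated SE, n = 3 and 3, adjusted p = 0.52, limma), and −0.04 for the mean over both probe sets. At E14.5 it read 7.73 to 7.93 in mutants and 7.69 to 7.99 in controls, a mean difference of 0.06, with −0.10 in batch 1 and 0.16 in batch 2. Its second probe set was dim at both stages, between 2.16 and 2.60 in mutants and 2.24 and 2.42 in controls at E13.5.

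Mdm2 and Phlda3 showed little difference at E13.5. Mdm2 on its brightest probe set read 6.90, 6.83 and 6.79 in mutants, against 6.92, 7.01 and 6.73 in controls (difference −0.05 ± 0.07, moderated SE, n = 3 and 3, 95% interval −0.19 to 0.10, adjusted p = 0.87, limma). Its other 2 probe sets differed by −0.06 and −0.035. Phlda3, an inhibitor of AKT membrane binding, read 6.28, 6.12 and 6.28 in mutants, against 6.24, 6.11 and 6.35 in controls (difference −0.0035 ± 0.09, moderated SE, n = 3 and 3, 95% interval −0.19 to 0.18, adjusted p = 0.995, limma). At E14.5 the brightest Mdm2 probe set lay between 5.07 and 5.15 in mutants and between 5.05 and 5.17 in controls. Phlda3 read 6.09, 5.94, 5.77, 5.83 and 5.89 in E14.5 mutants, against 5.67, 5.75, 5.80, 5.78 and 5.89 in controls, with a mean difference of 0.13 that was 0.31 in batch 1 and 0.01 in batch 2.

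Of the 7 members, 0 passed at E13.5, where 0.099% of the 11116 genes tested passed (11 genes, and 1060 genes at an unadjusted p under 0.05). Of the 7 members, 2 had an unadjusted p under 0.05 there, Ccng1 (0.026) and Trp53inp1 (0.0498), both lower in mutants. The E13.5 genotypes did not overlap for 3 of the 7, Cdkn1a, Ccng1 and Trp53inp1, where 17.9% of all genes tested did not overlap. The median member difference was −0.14 at E13.5 and 0.06 at E14.5, while over all genes tested it was −0.04 and 0.01. Markers of cell types differed in the same arrays, though none passed: the 12 mesenchyme markers were all lower in mutants at E13.5, with array means of 8.65 to 8.72 in mutants and 8.81 to 8.96 in controls, and the 14 muscle markers were all higher, with 6.65 to 7.01 in mutants and 6.11 to 6.36 in controls. Their part in the members' values was not tested. At E13.5, 1 of the 7 members was higher in mutants, as were 31.5% of all genes, and at E14.5, 4 of 7 members and 56.0% of all genes were. On the chosen probe sets, the E14.5 log2 difference was 0.79 for Pmaip1 and between −0.04 and 0.17 for the other 6. Probe sets not chosen reached 0.24 in Cdkn1a and −0.22 in Ccng1. Pmaip1 had been chosen by its E14.5 values, so its contrast with the other 6 is a description.

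**Figure D2:**
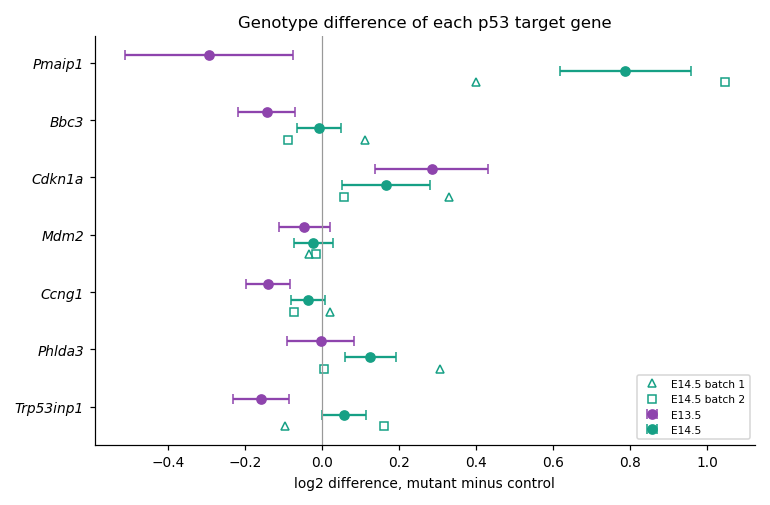
Log2 difference, mutant minus control, for each of the 7 p53 target genes at E13.5 (n = 3 and 3) and E14.5 (n = 5 and 5), with bars giving the moderated SE, and open triangles and squares giving the E14.5 difference within batch 1 and batch 2. On the chosen probe sets, the E14.5 value of Pmaip1 is 0.79, and those of the other 6 genes lie between −0.04 and 0.17.

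The arrays' deviations of Pmaip1 were compared with those of other genes after subtracting the mean of each stage and labelled batch, over 16 arrays. The 5 genes most like Pmaip1 were Grpel2, which encodes a mitochondrial co-chaperone, Anxa3 (an annexin), Brox, Rnf122 and Socs2 (a cytokine signalling inhibitor), with Pearson r of 0.90, 0.88, 0.85, 0.84 and 0.84. Spearman rho lay between 0.80 and 0.89 for these 5, and r between 0.76 and 0.84 without the 2 arrays farthest from the Pmaip1 median. These r were picked as the highest of 11115 and the arrays share the genotype difference, so they describe likeness only. For the other 6 members r with Pmaip1 was −0.31 to 0.35, the highest for Trp53inp1, which ranked 2486 of 11115.

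Genes outside the set were read from a wider list of p53 targets, of which 30 of 37 passed the filter. At E13.5 none of the 30 passed (limma, adjusted over 11116 genes) and 1 had an unadjusted p under 0.05, Rrm2b at −0.17 ± 0.08. Of the 30, 7 were higher and 23 lower in mutants, while 31.5% of all genes tested were higher. The median of the 30 was −0.04, equal to that of all genes to 2 decimals. At E14.5, where 2.63% of all genes passed, 3 of the 30 rose and none fell. An unadjusted p under 0.05 was found there for 3 of the 30 and for 1925 of all 11116 genes. Sfn (14-3-3 sigma, a checkpoint protein abundant in stratified epithelium) rose by 0.64 ± 0.07 (moderated SE, n = 5 and 5, adjusted p = 4.2e-04, limma), with 4.84, 4.83, 4.90, 4.76 and 4.96 in mutants, against 4.32, 4.26, 4.05, 4.28 and 4.19 in controls. Perp, a p53 target and desmosome component, rose by 0.30 ± 0.06 (adjusted p = 0.021, limma) and Xpc, a DNA repair recognition factor, by 0.22 ± 0.05 (adjusted p = 0.040, limma). In each of the 3 the 5 mutants lay above the 5 controls, while 4.41% of all genes tested had E14.5 groups that did not overlap. These 3 had the smallest p-values of the list, so the separation adds nothing to the test.

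Sfn and Perp are also in the list of oral epithelium markers, and Xpc is not. Xpc no longer passed under 21 of 32 alternatives (for example adjusted p = 0.068 with no filter, limma), and Perp under 7 of 32. With the E14.5 arrays alone 1 of the 30 passed, and without controls 1 and 3 also 1; without mutant 1 or control 3 alone it was again 1. The E14.5 median of the 30 was 0.05, against 0.01 for all genes. Of the 30, 24 were higher in E14.5 mutants, as were 56% of all genes tested. Btg2, an antiproliferative gene, had a difference of 0.45 ± 0.22 (adjusted p = 0.30, limma). Its groups overlapped, and control 5 read 4.47, against 5.37 to 5.95 in the other controls.

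The genes that act on p53 were measured for 18 of 20, and none passed at either stage (limma); p53 itself was not analysed here. At E13.5, 4 of 18 were higher and 14 lower, and 3 had an unadjusted p under 0.05. Among them the coactivator Ep300 was at −0.29 ± 0.09 (adjusted p = 0.36, limma), the kinase Dyrk2 at −0.14 ± 0.06 and the ligase Rchy1 at 0.17 ± 0.07. At E14.5, 11 were higher and 7 lower, and 2 had an unadjusted p under 0.05, as did 1925 of all 11116 genes at E14.5. The checkpoint kinase Chek1 was at 0.14 ± 0.04 (adjusted p = 0.10, limma) and the p53 relative Trp63, a regulator of epithelium, at 0.39 ± 0.13 (adjusted p = 0.14, limma).

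The other BCL2 family genes, the partners and rivals of NOXA and PUMA, showed no call. None of 13 tested genes passed at E13.5 or E14.5 (limma), with unadjusted p under 0.05 for 1 at E13.5, Bmf at −0.19 ± 0.07, and for 1 at E14.5, Mcl1. Mcl1, whose protein NOXA binds, was at 0.08 ± 0.04 at E14.5 (adjusted p = 0.28, limma). Bcl2l11, which encodes BIM, was at 0.15 ± 0.10 at E14.5.

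Downstream of the BCL2 family, 1 of 16 genes of the apoptosome and caspases rose at E14.5, where 2.63% of all genes passed. An unadjusted p under 0.05 was found there for 3 of the 16 and for 1925 of all 11116 genes. None of the 16 passed at E13.5, where 0 had an unadjusted p under 0.05. Casp6, an executioner caspase, rose by 0.20 ± 0.05 at E14.5 (moderated SE, n = 5 and 5, adjusted p = 0.043, limma), and its call was lost under 24 of 32 alternatives; with the mean over its probe sets it was at 0.08 (adjusted p = 0.51, limma). None of 21 cyclin, CDK and replication genes, which p21 restrains, passed at E13.5 or at E14.5 (limma), with an unadjusted p under 0.05 for 3 and 2 of them. At E14.5 Pcna was at 0.13 ± 0.05 (adjusted p = 0.21, limma) and the CDK inhibitor Cdkn1c at −0.13 ± 0.04 (adjusted p = 0.14, limma).

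Genes of the ATF4 stress response were read as a further list, since ATF4 too is known to induce Pmaip1; their part in the Pmaip1 difference was not tested. None of 12 ATF4 target genes passed at E13.5 or E14.5 (limma), with an unadjusted p under 0.05 for 1 at E13.5 and 2 at E14.5, and medians of −0.03 and −0.0033. At E14.5 Cebpb was at 0.15 ± 0.05 (adjusted p = 0.12, limma) and Nupr1 at −0.28 ± 0.11 (adjusted p = 0.20, limma). Handling of tissue can induce immediate early and heat shock genes. Of these, 6 of 11 rose in E14.5 mutants and all 11 were higher, with a median of 0.32. Over all genes tested, 2.63% passed at E14.5 and 56% were higher in mutants. Ier3, a stress-inducible survival gene, rose by 0.55 ± 0.08 (adjusted p = 0.0033, limma). The list's mean per array was 7.22 to 7.285 in mutants, against 6.84 to 7.003 in controls, without overlap, and its part in the Pmaip1 difference was not tested.

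**Figure D3:**
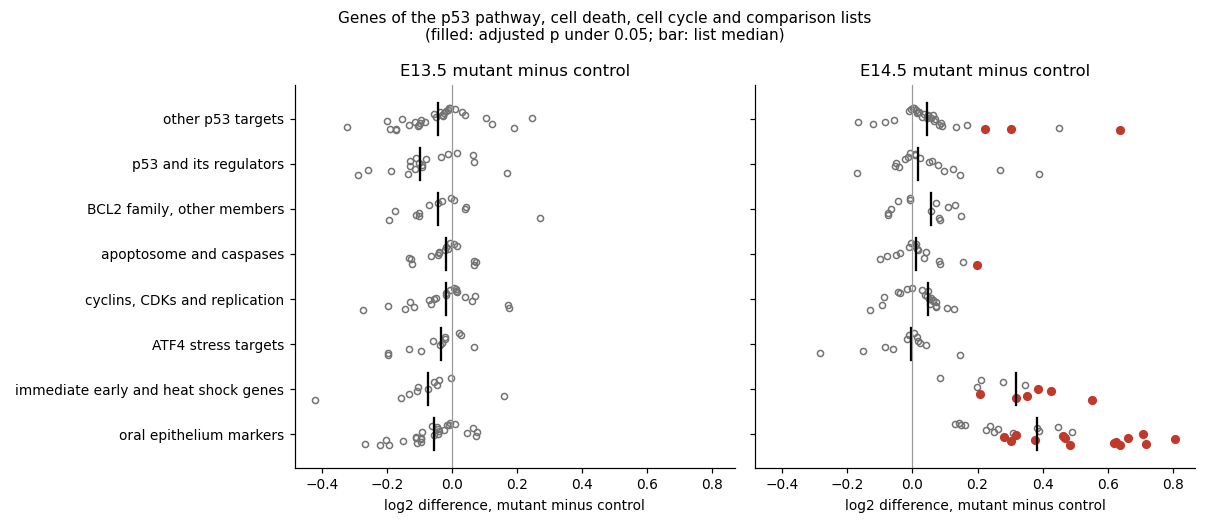
Log2 difference, mutant minus control, of each tested gene (points) in 8 gene lists (rows) at E13.5 (left) and E14.5 (right), with filled points for adjusted p under 0.05 (limma over 11116 genes) and bars for list medians. Filled points occur at E14.5 only, 3 among the other p53 targets, 1 among the apoptosome and caspases, 6 among the immediate early and heat shock genes and 14 among the oral epithelium markers. Over all genes tested, 2.63% passed at E14.5.

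Oral epithelium markers were higher in E14.5 mutants, as Pmaip1 was. Over all genes tested, 2.63% passed at E14.5 and 56% were higher in mutants. Of 27 epithelium markers tested, 14 rose in E14.5 mutants and all 27 were higher, with a median of 0.38. At E13.5 none of these markers passed and 0 had an unadjusted p under 0.05. There 22 of 27 were lower, with a median of −0.05. Their mean per array was 6.98 to 7.38 in E14.5 mutants and 6.68 to 6.77 in E14.5 controls, without overlap, and 6.64 to 6.80 in E13.5 mutants and 6.71 to 6.95 in E13.5 controls. Wnt1-Cre does not delete in this epithelium. Among the mutants, mutant 5 (batch 2) had the highest epithelium mean (7.38) and the highest Pmaip1 value (4.99). Mutant 1 (batch 1) had the next highest epithelium mean (7.21) and the lowest Pmaip1 value (4.43). Control 1 (batch 1), with the highest Pmaip1 value of the controls (4.36), had an epithelium mean of 6.73, within the range of the other controls. These are single arrays of different batches. The part of epithelial RNA in the Pmaip1 difference was not tested.

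Of the 12 mesenchyme markers, the labelled tissue, 8 were lower and 4 higher in E14.5 mutants and none passed (limma), with array means of 8.30 to 8.49 in mutants and 8.41 to 8.50 in controls. An unadjusted p under 0.05 was found for 4 of them, Prrx1 (−0.20), Col1a2 (−0.18) and Col1a1 (−0.34) lower and Osr2 (0.17) higher. Over all genes tested, 56% were higher in E14.5 mutants. All 14 muscle markers were higher there, with a median of 0.46, and 8 of 9 endothelium markers were lower, with a median of −0.13. The array means of these lists overlapped between the genotypes. Skeletal muscle means spanned 5.61 to 7.14 in mutants and 4.91 to 6.40 in controls, neuron means 3.87 to 5.12 in mutants and 4.01 to 4.70 in controls, macrophage means 5.59 to 5.83 in mutants and 5.56 to 5.90 in controls, and endothelium means 5.51 to 5.69 in mutants and 5.65 to 5.89 in controls. Red blood cell means spanned 5.31 to 5.52 in mutants and 5.44 to 5.69 in controls. No marker of muscle, neuron, endothelium, macrophage or red blood cell passed at either stage (limma), with an unadjusted p under 0.05 for 1 muscle gene at E13.5 and, at E14.5, for 3 muscle, 1 neuron, 4 endothelium and 3 macrophage genes, of 14, 10, 9 and 9 tested. Over all genes that count was 1925 of 11116 at E14.5. Their part in the members' values was not tested.

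**Figure D4:**
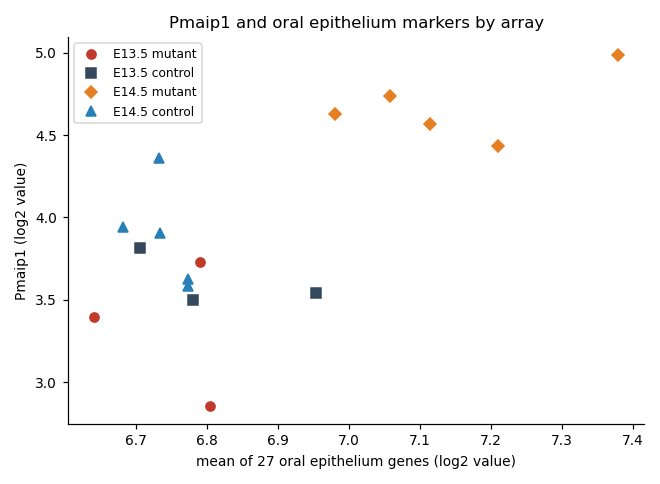
Pmaip1 (vertical axis, log2 value) against the mean of 27 oral epithelium genes (horizontal axis, log2 value), 1 point per array, by group. The E14.5 mutants lie between 6.98 and 7.38 on the horizontal axis and 4.43 and 4.99 on the vertical axis, and the E14.5 controls between 6.68 and 6.77 and between 3.58 and 4.36.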

How the data were processed

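RNA of mouse palate was measured on 16 arrays, and the authors deposited log2 expression values of 45101 probe sets made with GCRMA, per the submitters' processing notes; neither a version nor settings were found there. The platform annotation names 1 gene for 34958 probe sets, several for 932 and none for 9211. Where a gene had several probe sets, the one brightest on average was taken (18194 genes), and the 11116 genes that reached a log2 value of 4 on 3 arrays or more entered the tests. A single limma 3.58.1 model (R 4.3.3, lmFit and eBayes) over all arrays had the 4 groups and, at E14.5, the labelled batch as terms. "Passed", "rose" and "fell" mean a Benjamini-Hochberg adjusted p under 0.05 over all genes tested. The procedure was checked on simulated arrays.

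Members and gene lists were chosen with earlier results of these data known. Named genes are all members, genes among the 4 smallest p-values of a list in a comparison, and the 5 most like Pmaip1. Same-numbered arrays of the 2 genotypes did not deviate together (correlations of −0.49 to 0.17), so the numbers were not used as pairs. Alternatives covered filters, probe sets, normalization, weights, covariates, batches and leaving out each array. Figures used Python 3.11.15 and matplotlib 3.10.9.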

Additional observations from a re-analysis of the deposited data

Results flagged for a closer look

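Of 26 E14.5 groups of 5 values over the 13 member probe sets, 3 had an array far from the rest, where chance flags about 1 in 20. Control 1 was low on the second Cdkn1a probe set (5.98), and control 5 was low on the second Mdm2 probe set (2.86) and on the second Ccng1 probe set (5.10). None of these 3 is the probe set chosen for its gene.

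Of 85 genes with the 4 smallest p-values of a list at a stage, 3 differed between the stages in their genotype effect (limma, adjusted over 11116 genes). Over all genes tested 0.117% did, but these genes were picked by their p at one stage, so the shares are not comparable. The E14.5 effect minus the E13.5 effect was 0.94 ± 0.16 for Krt6a (adjusted p = 0.0375), 0.74 ± 0.11 for Sfn (adjusted p = 0.015) and 0.48 ± 0.08 for Socs3 (adjusted p = 0.0375). Krt6a and Sfn are in the oral epithelium list and Socs3 is in the immediate early and heat shock list, and Sfn is also a p53 target.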

How the results depend on the processing

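The number of arrays limits precision, with 3 per genotype at E13.5. No member passed at E13.5 under any of the alternatives run, and none of the other p53 targets did. Pmaip1 at E14.5 lay between 0.40 (batch 1 alone) and 1.05 (batch 2 alone) over the 32 alternatives that gave a value. With 1 array left out it lay between 0.69 and 0.92. Pmaip1 was chosen by these values and all its mutants lay above all its controls, so leaving out arrays could not change the sign. Several alternatives, such as leaving out an E13.5 array, could not change the value at all. With a filter at log2 5 Pmaip1 was not tested. At E13.5 it lay between −0.49 and −0.06 with 1 array left out. The sign changed at E13.5 for Mdm2 and Phlda3, both near 0. Mdm2 was at 0.01 after quantile normalization within each stage (0.0107) or over all arrays (0.0116), and between −0.12 and 0.0158 with 1 array left out (highest without control 2). Phlda3 was at 0.0620 and 0.0804 after these normalizations, 0.0309 with array weights and 0.0303 when actin 5′ to 3′ signal entered the model, and between −0.0657 (without control 2) and 0.0557 (without control 3) with 1 array left out.

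The count of genes passing at E13.5, 11, was 20 with arrays centred on their medians, 25 after quantile normalization over all arrays, 85 with array weights, 20 with no batch term, 6 with the actin term and 3 with batch 1 alone at E14.5, and 6 to 35 with 1 array left out (35 without mutant 2; 6 without mutant 1, mutant 3 or control 3; 7 without control 1). At E14.5 it was 292, and 184 with no filter, 130 after quantile normalization over all arrays, 155 with array weights, 64 with the stage alone, 143 with sex as a term, 31 and 128 with batch 1 and batch 2 alone, and 105 to 262 with 1 array left out (105, 194 and 122 without mutants 1, 4 and 5; 137 and 154 without controls 2 and 3; 188 without E13.5 control 1). For the difference between stages it was 13, and 25 with centring, 40 with array weights, 6 with the actin term, 6 and 20 with batches 1 and 2 alone, 20 without E14.5 controls 1 and 3, and 3 to 20 with 1 array left out (7 and 3 without E13.5 mutants 1 and 3; 3 without E13.5 control 2 or 3; 8 without E14.5 mutant 3; 20 and 7 without E14.5 controls 1 and 4). Of the other p53 targets 3 passed at E14.5, and 1 with the stage alone, 0 with batch 1 alone, 1 with batch 2 alone, 1 without controls 1 and 3, and 1 to 3 with 1 array left out (1 without mutant 1 or control 3). With a replicate block these counts were 6, 104, 3 and 1, and the numbers do not pair the arrays. The cause of these changes was not tested.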
